A study of Mus musculus with 12 samples.

Results

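The EGR and AP-1 immediate-early factors were followed here through 10 genes, *Egr1*, *Egr2*, *Egr3*, *Fos*, *Fosb*, *Fosl1*, *Fosl2*, *Jun*, *Junb* and *Ier2*, taken by symbol from a table of 46731 genes in which each symbol had 1 row. They were chosen by their measured values, with results of these same libraries in view, so the levels and differences of the 10 genes are a description and carry no p-value. Cells were of the ATDC5 line, a mouse chondrocyte line that the labels also call teratocarcinoma cells. A lentivirus had placed a hairpin stably in the genome, either the control hairpin (shRNA-NC, labelled wild type) or a hairpin against *Ddx5* (shRNA-*Ddx5*), an RNA helicase of the DEAD-box family. Each of these lines was left without stimulation (medium) or was given IL-1β combined with TNF-α (cytokines), and RNA was taken at 6 h, with 3 libraries in each of the 4 groups. Both lines thus carried an integrated hairpin. The knockdown was a single stable line with 1 hairpin, so line and hairpin cannot be told apart. The comparison asked what loss of *Ddx5* does to these transcription factors without and with the cytokines.

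EGR proteins are zinc finger factors that bind GC-rich sites. AP-1 is a dimer of a Jun protein with a Fos protein or another leucine zipper partner. Its site was searched for here in the wide form TGANTCA, where N is any base. Their genes are called immediate-early because stimuli switch them on through factors already present in the cell, without new protein, and for most of them RNA is short-lived. Serum response factor with its ETS partners (Elk proteins) drives *Egr1* and *Fos* downstream of ERK, while JNK and p38 act on *Jun* through Jun and ATF2 themselves. IL-1β and TNF-α activate these kinases in chondrocytes, and AP-1 sites lie in the promoters of several matrix-degrading enzymes of cartilage.

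Values were FPKM, fragments scaled to gene length and library size, so levels of different genes are compared per length. The libraries held 14119199 to 19276520 fragments assigned to genes. *Ddx5*, the targeted gene, averaged 319 ± 22.3 (SD, n = 3) and 103 ± 13.9 FPKM in shRNA-NC and shRNA-*Ddx5* cells in medium, and 310 ± 14.9 and 99.5 ± 5.27 FPKM with cytokines, a log2 fold change of -1.63 in both. Of the markers of cartilage, *Sox9* averaged 27.5 and 24.1 FPKM in shRNA-NC and shRNA-*Ddx5* cells in medium and 8.76 and 5.40 FPKM with cytokines. *Col2a1*, collagen of cartilage, averaged 12.4 and 0.899 FPKM in medium and 6.33 and 0.779 FPKM with cytokines, and *Col9a1* and *Hapln1*, without a fragment in shRNA-NC cells, averaged 0.207 and 0.110 FPKM in shRNA-*Ddx5* cells in medium. *Sox6* averaged 0.171 and 0.914 FPKM in medium and 0.124 and 0.333 FPKM with cytokines, and *Acan*, *Comp* and *Matn1* stayed under 1 FPKM in every library. The immune marker *Ptprc* and the endothelial marker *Cdh5* had no fragment in any library, while the myeloid markers *Lyz2* and *Csf1r* averaged 0.0518 and 0.0887 FPKM in shRNA-NC and 0.934 and 0.381 FPKM in shRNA-*Ddx5* cells in medium. The myeloid marker *Cd68* went the other way, at 1.42 and 1.10 FPKM in medium and 1.76 and 1.40 FPKM with cytokines. *Adgre1*, also myeloid, had no fragment in medium. The shRNA-NC medium library of replicate 3 was the shallowest, and it stood apart in the immediate-early genes. It held the lowest of the 3 values for 8 of the 10 members and for 22 of 35 other immediate-early genes (62.9%), against 38.9% of all genes tested. Knockdown differences of members in medium that rest on it are given with and without it. Where it held the lowest control value, leaving it out can only make the knockdown look lower, so values without it are a description. At the other end, shRNA-NC medium replicate 1 held the highest value for 6 of the 10 members, against 30.9% of all genes tested. Cytokine differences and the values of list genes include replicate 3. Log2 fold changes were taken on the log2(FPKM + 1) scale, on which changes of low genes come out too small, and come from limma fitted to the 12368 genes with at least 1 FPKM in at least 3 libraries. Of the 10 members 7 passed this filter. *Egr2*, *Egr3* and *Fosb* did not, and *Fos* passed only through the shRNA-NC cells with cytokines, so no count over the 7 stands for all 10.

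Promoter sequences were looked up for the 10 members, and 6 had an entry in the RefSeq table of build GRCm38.p6. The 250 bases before the start are shown for 3 of them, because *Jun* and *Junb* are members of 1 family, the former lower in the knockdown without overlap and the latter overlapping, and *Egr2* carries the serum response element letters. Capitals mark the only motif letters found of those searched on both strands. The searched motifs were the CArG box of serum response factor, TGANTCA (AP-1), TGACNTCA (the CRE and its Jun-type variants), GCGNGGGCG (EGR) and the NF-κB site.
Jun promoter, chr4:95052223-95052472, minus strand: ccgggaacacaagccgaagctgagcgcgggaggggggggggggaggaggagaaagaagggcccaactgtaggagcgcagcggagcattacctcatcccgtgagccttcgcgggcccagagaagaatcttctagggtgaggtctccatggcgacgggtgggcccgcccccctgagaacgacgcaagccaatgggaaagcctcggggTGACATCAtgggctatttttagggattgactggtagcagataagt
Junb promoter, chr8:84978749-84978998, minus strand: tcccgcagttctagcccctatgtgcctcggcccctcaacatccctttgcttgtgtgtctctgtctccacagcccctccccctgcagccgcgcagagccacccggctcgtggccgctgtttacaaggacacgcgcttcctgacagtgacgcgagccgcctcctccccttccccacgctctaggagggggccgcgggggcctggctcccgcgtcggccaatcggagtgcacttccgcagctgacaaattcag
Egr2 promoter, chr10:67537619-67537868, plus strand: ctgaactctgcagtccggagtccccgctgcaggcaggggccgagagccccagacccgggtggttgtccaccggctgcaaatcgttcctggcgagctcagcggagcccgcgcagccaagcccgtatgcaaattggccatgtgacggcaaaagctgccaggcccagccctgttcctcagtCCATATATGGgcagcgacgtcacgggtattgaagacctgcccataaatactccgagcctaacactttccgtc
The *Jun* window held TGACATCA from 45 to 38 bases before the start, a match to TGACNTCA, which 7.49% of 32851 promoter windows of this length hold. The *Junb* window held none of the 5 motifs. The *Egr2* window held the CArG box CCATATATGG from 72 to 63 bases before the start, a motif in 1.47% of windows. *Egr2* had 5 windows in the table, and 4 of them held a CArG box. No other gene of the 6 held one, *Fos* included, but letters further than 250 bases before the start were not searched. *Egr1* had no window. GCGGGGGCG was found in the windows of *Fosb* and *Fosl2*, with the motif GCGNGGGCG in 4.70% of windows. An NF-κB site, present in 3.9% of windows, was found in those of *Fos*, *Fosb* and *Fosl2*. None of the 6 genes held TGANTCA in its windows, and 6.75% of all windows do. A match is a description of the letters in a window and not of a bound site. The windows of *Jun* and *Junb* were picked by their levels, and whether the letters bear on these was not tested.

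**Figure D1:**
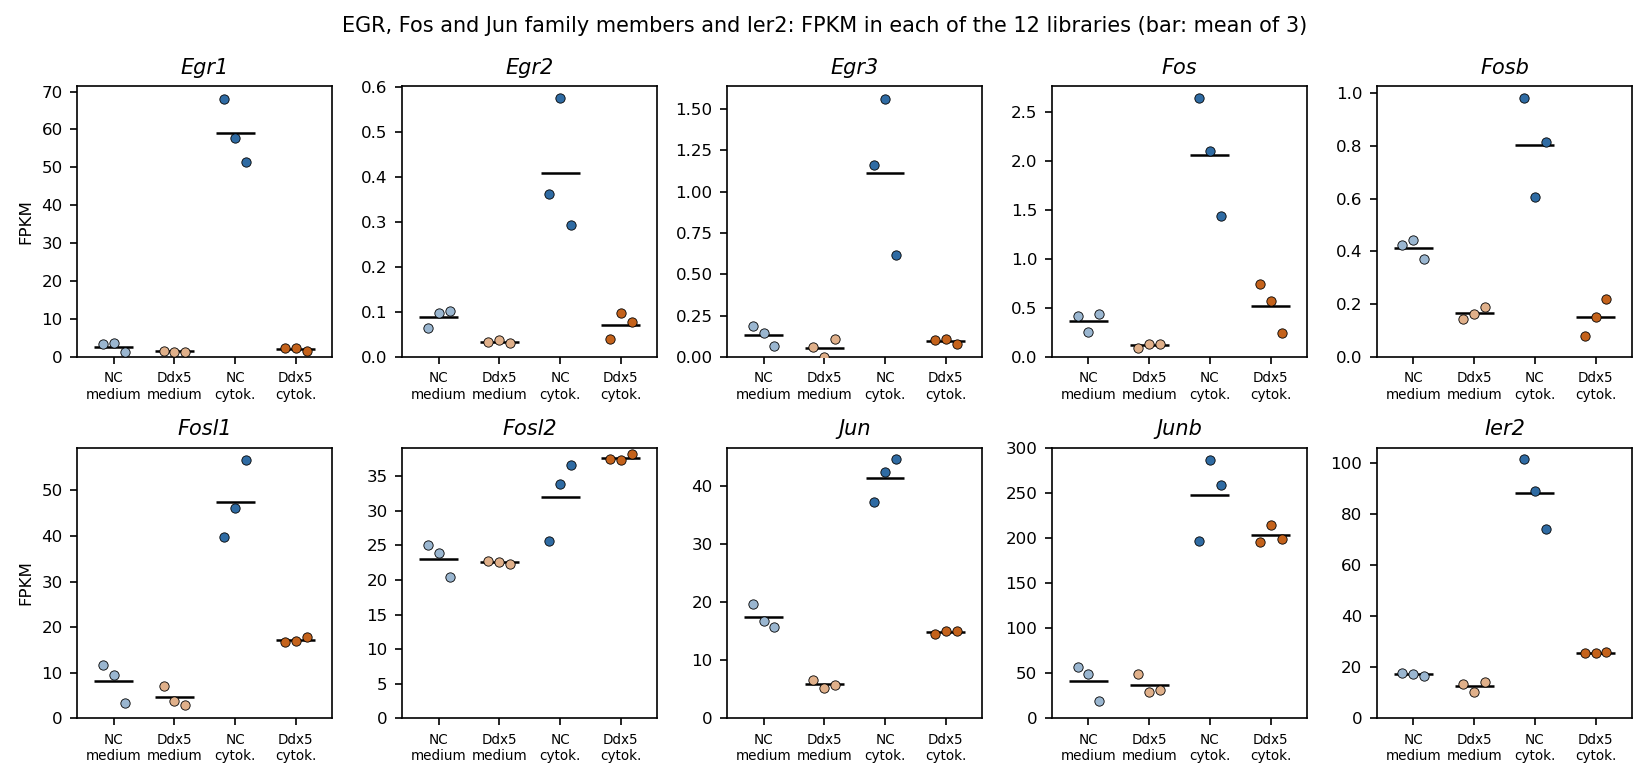
FPKM of the 10 members in each of the 12 libraries, in 10 panels with a linear axis from 0; each point is a library, placed by replicate number, and the black bar is the mean of 3. NC is shRNA-NC and Ddx5 is shRNA-*Ddx5*, without (medium) or with cytokines (cytok.); *Egr1* reached 51.3 to 68.1 FPKM only in shRNA-NC cells with cytokines, while *Junb* stood at 196 to 215 FPKM in shRNA-*Ddx5* cells with cytokines.

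*Egr1* showed the widest range of the 10 genes. It is gene 13653 of the table, on the plus strand of chromosome 18, and encodes the best known factor of its family. In shRNA-NC cells it was at 3.33, 3.54 and 1.19 FPKM in medium and at 68.1, 57.9 and 51.3 FPKM with cytokines. In shRNA-*Ddx5* cells it was at 1.5, 1.33 and 1.37 FPKM in medium and at 2.38, 2.29 and 1.59 FPKM with cytokines. The 3 stimulated control libraries stood far above the other 9. The mean with cytokines was 59.1 ± 8.46 FPKM (SD, n = 3) in shRNA-NC and 2.09 ± 0.432 FPKM in shRNA-*Ddx5* cells, 28.3-fold lower. On the log2 scale the knockdown difference was -4.28 (standard error 0.24) with cytokines and -0.55 (standard error 0.24) in medium, and the difference between these, -3.74 (standard error 0.33), was the largest among the members tested. Cytokines took *Egr1* 22.0-fold up in shRNA-NC and 1.49-fold up in shRNA-*Ddx5* cells, by means of FPKM. In medium the groups overlapped through the shRNA-NC library of replicate 3, and without it the log2 difference was -0.88.

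*Egr2* and *Egr3*, which encode related zinc finger factors, had the same order of groups at far lower levels. *Egr3* (gene 13655, plus strand of chromosome 14, GRCm39 positions 70314766 to 70320062) was at 1.16, 1.56 and 0.618 FPKM in shRNA-NC cells with cytokines, from 80, 121 and 48 fragments. In shRNA-*Ddx5* cells with cytokines it was at 0.102, 0.106 and 0.0768 FPKM, from 7, 7 and 5 fragments. The mean was 11.7-fold lower in the knockdown, and the groups did not overlap. In medium *Egr3* was at 0.188, 0.143 and 0.0644 FPKM in shRNA-NC and at 0.0588, 0 and 0.107 FPKM in shRNA-*Ddx5* cells. These groups overlapped, though not without shRNA-NC replicate 3 or without shRNA-*Ddx5* replicate 3, and the library without a fragment allows up to 0.0402 FPKM by the limit of 3 fragments, for counting error alone. *Egr2* was at 0.363, 0.576 and 0.293 FPKM in shRNA-NC and at 0.0399, 0.0969 and 0.0769 FPKM in shRNA-*Ddx5* cells with cytokines. Its mean was 5.76-fold lower in the knockdown with cytokines and 2.63-fold lower in medium, and in both media every knockdown library was below every control library. The *Egr2* model of the table is 9083 bases long and overlaps *Ado* and *Gm32255* on the opposite strand. Whether counting used strand is not given in the sources used here, so reads of overlapping genes could not be separated.

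*Fos* and *Fosb*, the Fos proteins with strong activation domains, were low, at 93 fragments or fewer per library. *Fos* (gene 14281, plus strand of chromosome 12, 85520664 to 85524048) was at 0.414, 0.257 and 0.442 FPKM in shRNA-NC and at 0.0865, 0.131 and 0.132 FPKM in shRNA-*Ddx5* cells in medium. The latter rest on 3 to 5 fragments each. Stimulated cells held 2.64, 2.10 and 1.44 FPKM in shRNA-NC and at 0.745, 0.566 and 0.241 FPKM in shRNA-*Ddx5* cells. The knockdown was lower without overlap in both media, by 3.19-fold and 3.98-fold of the mean FPKM, and the mean was higher with cytokines by 5.55-fold in shRNA-NC and 4.45-fold in shRNA-*Ddx5* cells. *Fosb* was at 0.424, 0.443 and 0.370 FPKM in shRNA-NC and at 0.145, 0.161 and 0.191 FPKM in shRNA-*Ddx5* cells in medium. With cytokines it was at 0.983, 0.608 and 0.817 FPKM in shRNA-NC and at 0.0801, 0.150 and 0.219 FPKM in shRNA-*Ddx5* cells. *Fosb* was thus higher with cytokines in the control, 1.95-fold, while the medium and cytokine groups of the knockdown overlapped.

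*Fosl1* and *Fosl2* encode Fra-1 and Fra-2, Fos proteins without the strong activation domain of Fos, and they made up nearly all Fos family RNA. *Fosl1* (gene 14283, plus strand of chromosome 19, 5497726 to 5505966) was at 11.7, 9.56 and 3.32 FPKM in shRNA-NC and at 7.06, 3.87 and 2.83 FPKM in shRNA-*Ddx5* cells in medium, and these groups overlapped. With cytokines it was at 39.8, 46 and 56.7 FPKM in shRNA-NC and at 16.8, 17.0 and 17.9 FPKM in shRNA-*Ddx5* cells, 2.75-fold lower with no overlap. The log2 knockdown difference was -0.65 (standard error 0.36) in medium and -1.40 (standard error 0.36) with cytokines, and without shRNA-NC medium replicate 3 the former was -1.12. As each library was left out, the difference in medium ranged from -1.12 to -0.35. *Fosl2* (gene 14284, plus strand of chromosome 5, 32292599 to 32315184) went the other way. It was at 25.0, 23.9 and 20.4 FPKM in shRNA-NC and at 22.8, 22.7 and 22.4 FPKM in shRNA-*Ddx5* cells in medium. With cytokines it was at 25.6, 33.9 and 36.6 FPKM in shRNA-NC and at 37.5, 37.3 and 38.3 FPKM in shRNA-*Ddx5* cells. Each knockdown library was therefore above each control library with cytokines, but by a log2 difference of 0.24 with a 95% interval from -0.02 to 0.50. In medium the groups overlapped and the difference was -0.03 with an interval from -0.28 to 0.23. Without shRNA-NC medium replicate 3 it was -0.11, and the knockdown libraries were all lower. Over all libraries left out in turn it ranged from -0.11 to 0.03.

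*Jun*, which encodes the founding Jun protein, was lower in the knockdown by a like amount in both media. Its gene, number 16476, spans 94937273 to 94940459 of chromosome 4, minus strand, and the model has no intron, as for *Junb* and *Ier2*. *Jun* was at 19.7, 16.7 and 15.8 FPKM in shRNA-NC and at 6.62, 5.16 and 5.73 FPKM in shRNA-*Ddx5* cells in medium. Stimulated libraries were at 37.2, 42.4 and 44.6 FPKM in shRNA-NC and at 14.5, 15.1 and 15.1 FPKM in shRNA-*Ddx5* cells. Neither pair of groups overlapped, and stimulated knockdown cells held less *Jun* RNA than each unstimulated control library. The log2 knockdown difference was -1.43 in medium and -1.41 with cytokines (standard error 0.11 each), and the difference between these was 0.01 with a 95% interval from -0.31 to 0.34. The cytokine difference was 1.21 in shRNA-NC and 1.22 in shRNA-*Ddx5* cells.

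*Junb* had the highest mean FPKM of the 10 members in each group, and its groups overlapped between the lines. JunB can take the place of Jun in AP-1 and is a weaker activator at many sites. Its gene, number 16477, spans 85703538 to 85705377 of chromosome 8, minus strand. In medium it was at 56.6, 49.0 and 19.4 FPKM in shRNA-NC and at 49.2, 29.3 and 31.9 FPKM in shRNA-*Ddx5* cells. Stimulated libraries were at 197, 288 and 260 FPKM in shRNA-NC and at 196, 215 and 199 FPKM in shRNA-*Ddx5* cells. Cytokines took it up 5.96-fold in shRNA-NC and 5.52-fold in shRNA-*Ddx5* cells. The knockdown difference on the log2 scale was -0.08 in medium, with a 95% interval from -0.80 to 0.65, and -0.27 with cytokines, from -1.0 to 0.46, so the intervals held differences of either sign. Without shRNA-NC medium replicate 3 the value in medium was -0.54, and with each library left out in turn it ranged from -0.54 to 0.21.

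*Ier2*, a short intronless gene for a nuclear protein induced by growth factors, had narrow groups only in unstimulated controls and stimulated knockdown cells. Its gene, number 15936, spans 85387960 to 85389481 of chromosome 8, minus strand. In medium it was at 17.6, 17.4 and 16.7 FPKM in shRNA-NC and at 13.5, 10.2 and 14.1 FPKM in shRNA-*Ddx5* cells. Stimulated libraries were at 102, 89.0 and 74.1 FPKM in shRNA-NC and at 25.4, 25.5 and 26 FPKM in shRNA-*Ddx5* cells. The knockdown was lower without overlap in both media, 1.36-fold in medium and 3.44-fold with cytokines. The log2 difference was -0.43 and -1.73 (standard error 0.13 each), a difference between media of -1.30 (standard error 0.18), and cytokines took *Ier2* up 5.12-fold in shRNA-NC against 2.03-fold in shRNA-*Ddx5* cells.

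**Figure D2:**
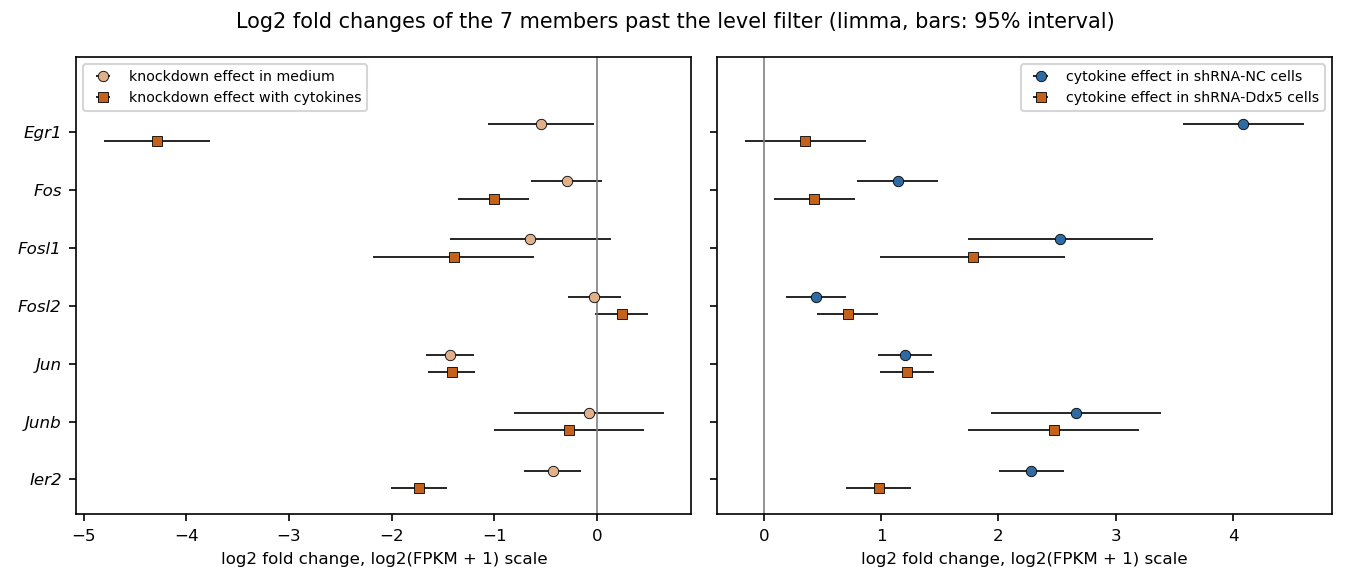
Log2 fold changes on the log2(FPKM + 1) scale (horizontal axes) of the 7 members past the level filter, with 95% intervals from limma; the left panel holds shRNA-*Ddx5* against shRNA-NC in medium (circles) and with cytokines (squares), the right panel cytokines against medium in shRNA-NC (circles) and shRNA-*Ddx5* cells (squares). *Egr1* lies at -4.28 and *Ier2* at -1.73 for the knockdown with cytokines, *Jun* holds nearly the same place in both media, and *Fosl2* and *Junb* lie near 0.

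Counts over the 10 members follow from how the genes were chosen. In medium the knockdown libraries were all below the control libraries for 5 members (*Egr2*, *Fos*, *Fosb*, *Jun* and *Ier2*) and all above for 0, and the groups of 5 overlapped. Among the 27209 genes with a fragment, 15.1% were all lower and 17.4% all higher. Without shRNA-NC medium replicate 3 there were 9 members below, all but *Junb*, a count added after the data were seen. Groups with a library left out separate more easily, and no share of all genes was computed for them. With cytokines 8 were all lower, *Fosl2* alone was higher and *Junb* overlapped (it was lower too without shRNA-NC cytokine replicate 1), where 16.7% and 19.8% of genes were all lower and all higher. In shRNA-NC cells all 10 were higher with cytokines than in medium, against 13.4% of genes higher and 14.4% lower, and in shRNA-*Ddx5* cells 8 were higher, with *Egr3* and *Fosb* overlapping, against 14.4% higher and 14.3% lower.

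The fit over all genes also gives counts of members past its threshold of 0.05 on the adjusted p. They are given as a description, since the members were chosen on these values, and nothing is read from them. Of the 7 members in the fit, 2 (*Jun* and *Ier2*) were past it downward in medium, where 21.7% of all genes tested were called lower and 25.3% higher. Without shRNA-NC medium replicate 3 there were 4, with *Egr1* and *Fosl1* added, and without shRNA-*Ddx5* medium replicate 2 there was 1 (*Jun*). With cytokines 5 were past it downward (*Egr1*, *Fos*, *Fosl1*, *Jun* and *Ier2*), where 22.1% of genes were called lower and 23.5% higher. *Fos* entered the fit only through the group in which it was high, which fixes part of its difference. All 7 were called higher with cytokines in shRNA-NC cells, where 18.6% of genes were called higher and 15.2% lower. In shRNA-*Ddx5* cells 5 were, without *Egr1* and *Fos*, where 13.5% of genes were called in each direction. The difference of the knockdown effect between media was past the threshold for *Egr1* and *Ier2*, both toward lower with cytokines, and over all genes for 4.75% toward lower and 3.46% toward higher. The median log2 difference of the 7 was -0.43 in medium and -1.40 with cytokines, beside 0.03 and 0.01 over all genes tested.

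Summed over each family, the members did not move alike. EGR family RNA (*Egr1* to *Egr4*) came to 3.21 ± 1.30 FPKM (SD, n = 3) in shRNA-NC and 1.54 ± 0.132 FPKM in shRNA-*Ddx5* cells in medium, and to 61.8 ± 8.65 and 2.34 ± 0.450 FPKM with cytokines. *Egr1* held 95.6% of it in stimulated controls. Fos family RNA came to 32.1 ± 6.76 and 27.5 ± 2.34 FPKM in medium and to 82.4 ± 13.2 and 55.6 ± 0.908 FPKM with cytokines. Its make-up differed between the lines after stimulation. *Fosl1* held 55.7% to 59.4% of Fos family FPKM in stimulated shRNA-NC libraries and 30.6% to 31.6% in stimulated shRNA-*Ddx5* libraries, where *Fosl2* held 67.5% to 67.9%. Jun family RNA with *Jund* came to 99.6 ± 31.8 and 66.9 ± 15.6 FPKM in medium and to 337 ± 59.6 and 259 ± 11.2 FPKM with cytokines. *Jun* itself held 12.4% on average of it in stimulated shRNA-NC and 5.75% in stimulated shRNA-*Ddx5* libraries, and *Junb* held 73.4% and 78.6% on average.

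**Figure D3:**
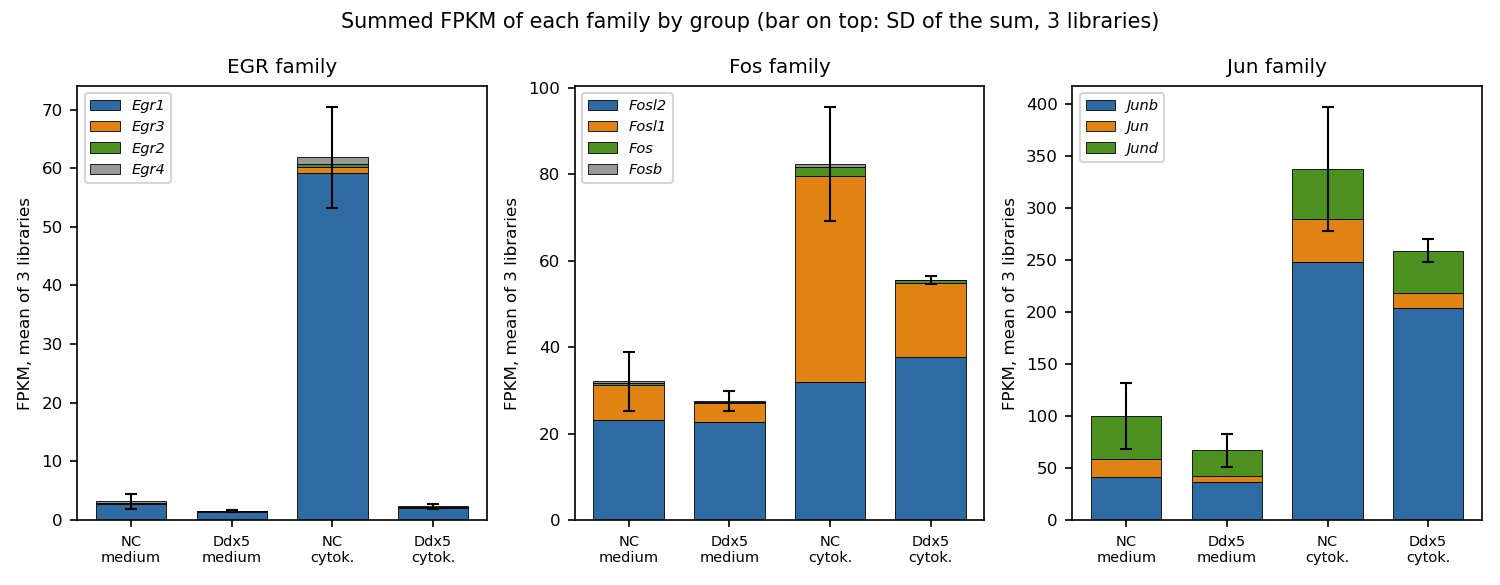
Summed FPKM (vertical axes, from 0) of the EGR, Fos and Jun families in the 4 groups, each bar stacked from the mean of 3 libraries per gene, with the SD of the sum as the error bar. The EGR bar reached 61.8 FPKM only in shRNA-NC cells with cytokines, and the *Fosl1* part of the Fos bar was 47.5 FPKM in stimulated shRNA-NC and 17.3 FPKM in stimulated shRNA-*Ddx5* cells.

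Other subunits that can pair in AP-1 or bind like sites were read from a list of 13 genes, of which 10 passed the filter. In medium 5 fell and 1 rose in the knockdown, and with cytokines 5 fell and 2 rose, by limma with Benjamini-Hochberg adjustment over all genes tested. That is 60.0% called in medium and 70.0% with cytokines, beside 47.0% and 45.6% over all genes tested. *Atf2*, a partner of Jun at the *Jun* promoter, fell in the knockdown by 1.23 on the log2 scale in medium (adjusted p = 3.8e-05) and by 1.07 with cytokines (adjusted p = 9.7e-05). *Atf3*, a stress-induced member, fell by 1.01 in both (adjusted p = 7.5e-05 and 7.3e-05). *Atf3* was at 8.22 ± 0.225 and 3.57 ± 0.338 FPKM (SD, n = 3) in medium and at 26.3 ± 5.69 and 12.4 ± 0.726 FPKM with cytokines, so like *Jun* it was lower by about the same factor in both. *Maff*, a small Maf protein, fell by 0.64 (adjusted p = 0.0016) and by 1.0 (adjusted p = 7.9e-05). *Jund*, the Jun protein that resting cells hold, fell by 0.70 in medium (adjusted p = 0.016) and was at -0.21 with cytokines (adjusted p = 0.42). Against medium, cytokines raised 4 of the 10 and lowered 2 in shRNA-NC cells, and raised 5 and lowered 2 in shRNA-*Ddx5* cells. That is 60.0% and 70.0% called, beside 33.8% and 27.0% over all genes tested. *Maff* rose the most (2.90 and 2.54, adjusted p = 2.5e-08 and 5.1e-08).

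Of the relatives of EGR, *Egr4* and *Wt1* did not pass the filter. *Egr4* was at 0.976, 1.59 and 1.07 FPKM in shRNA-NC and at 0.169, 0 and 0.0887 FPKM in shRNA-*Ddx5* cells with cytokines, the same order as *Egr3*. *Nab1* and *Nab2* encode co-repressors that EGR proteins bind and, for *Nab2*, induce. In the knockdown *Nab1* fell by 0.43 in medium (adjusted p = 0.01) and was at 0.03 with cytokines (adjusted p = 0.87), and *Nab2* was at -0.58 (adjusted p = 0.079) and -0.48 (adjusted p = 0.14). The co-repressor RNAs rose with cytokines in both lines, *Nab1* by 0.77 and 1.23 (adjusted p = 0.00045 and 1.1e-05) and *Nab2* by 0.71 and 0.82 (adjusted p = 0.049 and 0.033).

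A list of 36 other immediate-early genes was read beside the members, and 35 passed the filter. In the knockdown 12 fell and 6 rose in medium, and 22 fell and 4 rose with cytokines, with a median log2 difference of -0.09 and -0.48. That is 51.4% called in medium, near the 47.0% over all genes, and 74.3% with cytokines, beside 45.6%. In medium the largest falls were in *Nr4a1*, an orphan nuclear receptor (-1.29, adjusted p = 1.2e-05), *Rhob* (-0.75, adjusted p = 3.3e-05), *Klf6* (-0.60, adjusted p = 0.00067) and *Klf2* (-0.58, adjusted p = 0.011). With cytokines they were in *Ier5*, a relative of *Ier2* (-1.58, adjusted p = 9.9e-05), *Hbegf*, an EGF receptor ligand (-1.51, adjusted p = 5.5e-06), the kinase *Sgk1* (-1.50, adjusted p = 1.3e-06) and *Nr4a1* (-1.33, adjusted p = 9.5e-06). The list did not fall as a whole. *Cebpd* and *Cebpb* encode leucine zipper factors of the acute-phase response. In stimulated cells they were higher in the knockdown than in the control, by 2.49 (adjusted p = 3.6e-05) and 1.40 (adjusted p = 0.00018). So were *F3*, tissue factor (1.52, adjusted p = 8.2e-06), and *Bhlhe40* (0.93, adjusted p = 0.00014). The largest rises in the knockdown in medium, by limma, were in *Cebpd* (1.44, adjusted p = 0.0015) and *F3* (0.89, adjusted p = 3e-04). *Arc* (0.74, adjusted p = 0.0011) and *Ccn2* (0.45, adjusted p = 0.0036) followed. Cytokines raised 25 and lowered 2 of the 35 in shRNA-NC cells and raised 19 and lowered 4 in shRNA-*Ddx5* cells. That is 77.1% and 65.7% called, beside 33.8% and 27.0% over all genes. *Ptgs2*, the inducible cyclooxygenase, rose by 4.13 in shRNA-NC and by 3.44 in shRNA-*Ddx5* cells (adjusted p = 2.2e-07 and 7.3e-07). The difference of the knockdown effect between media was past the threshold for 13 genes toward lower and 3 toward higher (45.7%, beside 8.21% over all genes).

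**Figure D4:**
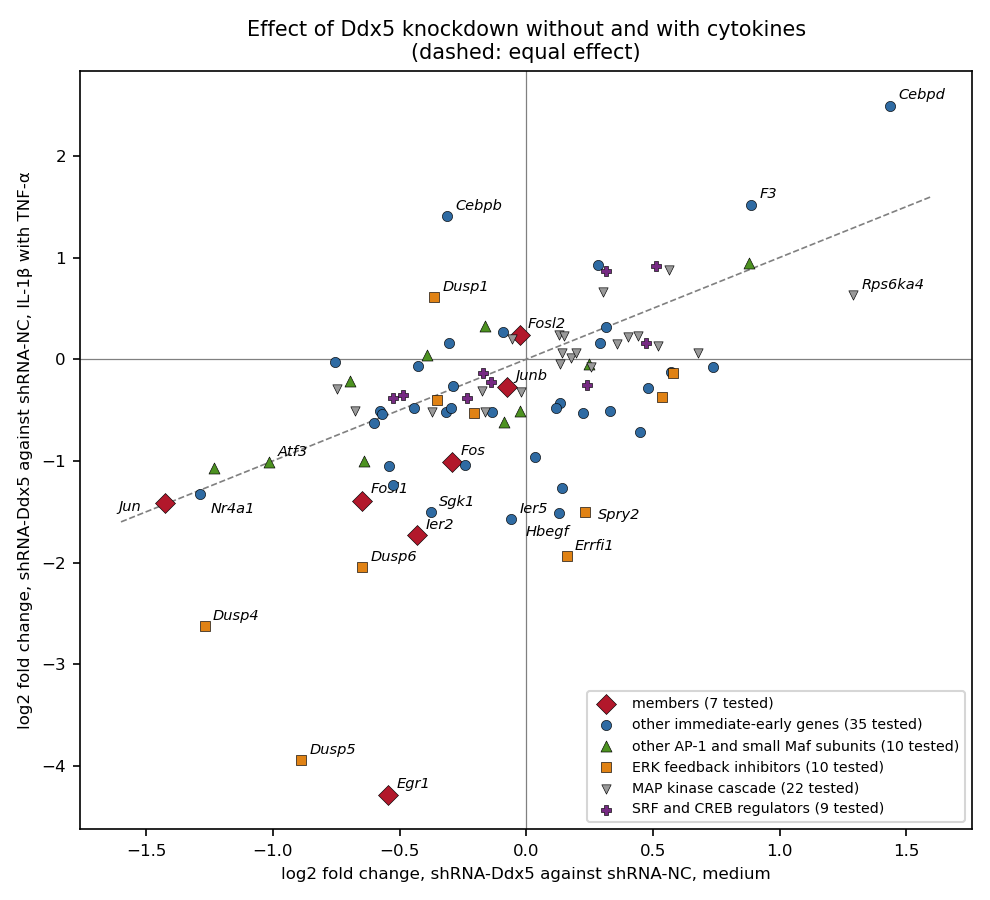
Log2 difference of shRNA-*Ddx5* against shRNA-NC cells in medium (horizontal) and with cytokines (vertical), on the log2(FPKM + 1) scale, for the 7 members tested (red diamonds) and 5 lists; each point is a gene, and the dashed line marks an equal effect. The 2 axes share no library; *Jun* and *Atf3* lie near the dashed line, *Egr1* and *Dusp5* lie lowest, at -4.28 and -3.95 with cytokines, and *Cebpd* highest, at 2.49.

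ERK feedback inhibitors are switched on by ERK and dampen it, and most of them fell in the knockdown with cytokines. Of 13 genes 10 passed the filter, and 5 fell and 2 rose in the knockdown in medium, 8 fell and 1 rose with cytokines. That is 70.0% and 90.0% called, beside 47.0% and 45.6% over all genes tested. *Dusp5*, a nuclear ERK phosphatase, was at 64.2, 39.2 and 44.3 FPKM in shRNA-NC and at 2.00, 2.46 and 2.13 FPKM in shRNA-*Ddx5* cells with cytokines. In medium it was at 10.5, 10.1 and 11.6 FPKM and at 5.49, 4.52 and 6.05 FPKM. It fell by 3.95 on the log2 scale with cytokines (adjusted p = 6.4e-08) and by 0.89 in medium (adjusted p = 0.00091). Cytokines raised *Dusp5* by 2.07 in shRNA-NC (adjusted p = 3e-06) and lowered it by 0.99 in shRNA-*Ddx5* cells (adjusted p = 0.00075), so that the response had opposite signs. *Dusp4* and *Dusp6*, phosphatases of the same group, were lower in stimulated knockdown than in stimulated control cells (-2.62 and -2.05, adjusted p = 1.2e-07 and 3.1e-07). So were *Errfi1* and *Spry2*, inhibitors of receptor signaling (-1.93 and -1.51, adjusted p = 1.9e-06 and 1.1e-05). *Dusp1*, a phosphatase of all MAP kinases, was lower in the knockdown by 0.36 in medium (adjusted p = 0.019) and higher in it by 0.61 with cytokines (adjusted p = 0.00097). Cytokines raised 9 of the 10 in shRNA-NC cells, and in shRNA-*Ddx5* cells raised 4 and lowered 2. That is 90.0% and 60.0% called, beside 33.8% and 27.0% over all genes. The difference of the knockdown effect between media was past the threshold for 7 genes toward lower and 1 toward higher (80.0%, beside 8.21% over all genes).

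Factors and kinases that act on the immediate-early promoters are read against all genes tested, of which 47.0% were called in either direction in medium and 45.6% with cytokines. Of 9 serum response factor and CREB regulators, all tested, 3 rose and 2 fell in the knockdown in medium, and 2 rose and 3 fell in it with cytokines. *Srf* was at 0.47 in medium (adjusted p = 0.037), *Elk1* rose by 0.51 and 0.92 (adjusted p = 0.024 and 0.00094), and *Atf1* fell by 0.52 and 0.38 (adjusted p = 0.0011 and 0.008). Of 23 genes of the MAP kinase cascade 22 passed the filter, and *Egfr* did not. In medium 8 rose and 2 fell (45.5% called), and with cytokines 3 rose and 4 fell (31.8%), shares no higher than over all genes. *Rps6ka4*, the kinase MSK2 that acts on CREB and histone H3, rose by 1.29 and 0.63 (adjusted p = 1.8e-06 and 0.00021), and *Araf* rose by 0.56 and 0.88 (adjusted p = 0.00025 and 1.2e-05). *Rps6ka1* fell by 0.67 and 0.51 (adjusted p = 0.00097 and 0.0052). For *Mapk3*, which encodes ERK1, the log2 difference was 0.19 in medium (adjusted p = 0.25) and 0.06 with cytokines (adjusted p = 0.73). These are RNA levels, and kinase activity was not measured.

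Other groups of genes moved with the knockdown in the same libraries. Of 7 heat shock genes, which stress induces together with *Jun* and *Fos*, 6 passed the filter. In the knockdown 3 of these fell and 1 rose in medium (66.7% called), and 5 fell with cytokines (83.3%). Over all genes tested 47.0% and 45.6% were called. The summed FPKM of the 7 ranged from 2242 to 2749 in shRNA-NC and from 1387 to 1570 in shRNA-*Ddx5* libraries in medium, and from 1943 to 3388 and from 1200 to 1227 with cytokines. *Hspa8*, the constitutive Hsp70, fell by 0.86 and 1.13 (adjusted p = 0.0043 and 0.00078). The summed FPKM of 10 cartilage markers was 40.8 to 47.2 and 27.2 to 31.2 in medium and 14.5 to 20.9 and 8.51 to 9.32 with cytokines. That of 9 leukocyte and endothelial markers was 1.36 to 1.83 and 1.99 to 2.91 in medium and 1.67 to 2.40 and 2.08 to 2.62 with cytokines, and of these only *Cd68* passed the filter. The part of these groups in the levels of the members was not tested. In bulk RNA, fewer cells with a transcript and less of it per cell cannot be told apart.

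The genes whose pattern over the 12 libraries was most like that of a member were found by the root-mean-square difference of log2(FPKM + 1), each gene centred on its own mean, for the 6 members whose group means spanned at least 1 log2 unit. For *Egr1* they were *Prl2c2* (0.67), *Prl2c3* (0.73), *Hmga1b* (0.77), *Dusp6* (0.84) and *Hmga1* (0.86). *Prl2c2* and *Prl2c3* are near-identical proliferin genes and *Hmga1b* is a near copy of *Hmga1*, so reads may be split between them. For *Fosl1* they were *Ier5* (0.31), *Rnf19b* (0.34), *Arhgap22* (0.42), *Slc6a4* (0.44) and *Maff* (0.44), and for *Ier2* they included *Ndrg1* (0.22), *Sgk1* (0.24), *Rnf19b* (0.28) and *Etv5* (0.31). For *Jun* they were *Ppp1r15a* (0.22), *Abcb1b* (0.24), *Sqstm1* (0.24), *Inhba* (0.26) and *Pim1* (0.26). For *Junb* they were *Tapbpl* (0.34), *Rnd1* (0.35), *Rgs16* (0.38), *Traf1* (0.39) and *Psd* (0.40), and for *Fos* they were *Ifrd1* (0.17), *Hspa5* (0.18), *Gsto1* (0.19), *Snhg17* (0.19) and *Rin2* (0.20). No member was among the 5 genes nearest to another member. Only genes past the filter were searched, so *Egr2*, *Egr3* and *Fosb* could not appear, and the measure also counts the size of a change. *Rnf19b* was near both *Fosl1* and *Ier2*.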

How the data were processed

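RNA of ATDC5 cells was measured in 12 poly-A libraries, 3 for each of 4 groups taken from the labels. The authors counted fragments on genes and deposited FPKM per gene and library for 46731 genes, with gene lengths, in GRCm39 coordinates (chromosome accessions of the table), while the submitters' processing notes name mm10, HISAT2 2.0.5, featureCounts 1.5.0-p3 and DESeq2 1.20.0. Multiplied by gene length, 100.0% of the non-zero values came out as whole fragments within 0.01. The unit of these recovered values is fragments per gene. DESeq2, the test of the study, was not run, because FPKM is deposited. A floor is 3 fragments, and floors cover counting error only.

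limma 3.58.1 in R 4.3.3 (lmFit, contrasts.fit, eBayes with trend) was fitted to log2(FPKM + 1) of 12368 genes with 4 group means and no covariate. Benjamini-Hochberg adjustment ran over all genes tested, with a threshold of 0.05. The p-values rest on the spread between the 3 libraries of a group, pooled over the 4 groups. The paper calls these independent experiments. Spread between lines or hairpins is not measured by them. The members and gene lists were chosen with earlier results of these data known, so members are given without p-values and list counts are a description. Named were all 10 members, *Ddx5*, up to 4 genes per direction, list and contrast by size among those past the threshold, any gene of a list of 13 or fewer, and the 5 genes most like a member. *Mapk3* was named after its values were seen. Some genes that this rule names are not reported here. Alternatives were a pseudocount of 0.1, no filter, quantile normalization, scaling to the sum of fragments, the replicate number as a block, voom weights on the recovered fragments, only the 6 libraries of a contrast, and each library left out in turn. The fit was tested on simulated data. Replicate numbers were not used to pair the libraries in the main fit. Motifs and figures were made in Python 3.11.15.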

Additional observations from a re-analysis of the deposited data

Results flagged for a closer look

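The effect of the *Ddx5* knockdown differed between the media for 30 genes of the lists, by the interaction term of limma with Benjamini-Hochberg adjustment over all genes tested, and 21 of them fall under the rule for named genes. Of all genes tested 8.21% were past the threshold. Values are the log2 difference with cytokines minus that in medium. Among ERK feedback inhibitors it was -3.06 for *Dusp5*, -2.09 for *Errfi1*, -1.74 for *Spry2*, -1.40 for *Dusp6*, -1.35 for *Dusp4*, -0.91 for *Dusp7*, -0.72 for *Spry1* and 0.98 for *Dusp1*. For other immediate-early genes it was -1.64 for *Hbegf*, -1.52 for *Ier5*, -1.41 for *Ccn1*, -1.16 for *Ccn2*, 0.64 for *Bhlhe40*, 0.73 for *Rhob* and 1.72 for *Cebpb*. The AP-1 relatives *Mafk* and *Atf7* stood at -0.49 and 0.43. In the kinase list it was -0.66 for *Rps6ka4* and -0.62 for *Map2k6*, and it was -0.49 for the ETS factor *Elk3* and -1.25 for the small heat shock gene *Hspb1*. *Bhlhe40* lost the threshold without the level filter, under the block, with quantile normalization, with voom weights and with the smaller pseudocount, *Atf7* under the block and the smaller pseudocount, and *Map2k6* with the smaller pseudocount. *Bhlhe40* and *Atf7* also lost it when most of the libraries were left out in turn.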

How the results depend on the processing

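The 7 tested members gave 35 log2 differences over 5 contrasts and 641 alternative values, of which 618 kept their direction and side of the threshold. The members were chosen on these values, so their side of the threshold describes the processing only, and nothing is read from it. The knockdown with cytokines kept its direction for each of the 7 under the alternatives run, with *Egr1* between -4.83 and -4.16. Of the others, *Egr1* and *Fosl1* in medium passed the threshold without shRNA-NC medium replicate 3, *Egr1* also under the block and *Fos* with the smaller pseudocount. *Ier2* in medium lost it without shRNA-*Ddx5* medium replicate 2, and the cytokine difference of *Fosl2* in shRNA-NC cells lost it without shRNA-NC cytokine replicate 3, with quantile normalization and with only the 6 libraries. The knockdown difference of *Fosl2* with cytokines passed it without shRNA-NC cytokine replicate 3, and the cytokine difference of *Fos* in shRNA-*Ddx5* cells passed it with the smaller pseudocount, voom weights and without shRNA-*Ddx5* cytokine replicate 3. *Fos* could not be tested when a shRNA-NC cytokine library was left out, since it then missed the level filter. Signs turned only for values near 0 when a library was left out. As libraries were left out, *Fosl2* in medium ranged from -0.109 to 0.0324 and *Junb* in medium from -0.542 to 0.206, and the difference between media from -0.476 to 0.271 for *Junb* and from -0.0747 to 0.0952 for *Jun*. The difference between media ranged from -3.92 to -3.40 for *Egr1*. The cytokine difference in shRNA-NC cells ranged from 3.75 to 4.28 for *Egr1*, from 2.05 to 2.83 for *Fosl1* and from 2.20 to 2.95 for *Junb*. Among the list genes *Mapk3* turned with quantile normalization (-0.0613 in medium, -0.0988 with cytokines) and *Nab1* with cytokines under quantile normalization and scaling to the sum of fragments (-0.0220 and -0.0284) and with a library left out (-0.0236 to 0.0848). The causes were not tested.

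Members whose groups did not overlap were 5 for the knockdown in medium and 9 with cytokines, and 5 to 9 and 9 to 10 as libraries were left out, an alternative chosen after seeing the data. Smaller groups separate more easily, and the share of all genes was not computed with a library left out. Counts of genes called moved by over 1.5 times in few cases. Members called in the medium ranged from 1 to 4 as libraries were left out, and without the filter 8 members, of 10 then tested, were called with cytokines in place of 5. These member counts are a description too. Serum response factor and CREB regulators called in medium were 5, and 2 without the filter, 3 under the replicate block, 2 with only the 6 libraries and 2 to 5 as libraries were left out. Kinase genes called with cytokines were 7, and 4 to 9 as libraries were left out. AP-1 relatives whose effect differed between media were 2, 1 with the smaller pseudocount, 1 under the replicate block and 0 to 2 as libraries were left out.

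Taken over all groups, same-numbered libraries did not deviate together (mean r = -0.0450 over 18 pairs, 4 over 0.1). Between the lines in medium, however, the same-numbered pairs had r = 0.448, 0.0425 and 0.313. With cytokines they had r = -0.0201, 0.121 and -0.0855. Whether numbers pair the medium libraries cannot be told from so few pairs. Under the replicate block 5452 genes were called in place of 5817 for the knockdown in medium, 5396 of them shared, and 687 in place of 1016 for the difference between media, 674 shared. Depth limits *Egr2*, *Egr3*, *Fos* and *Fosb*, where a library of the knockdown held 0 to 26 fragments.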
